A study of Mus musculus with 6 samples.

Results

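The 9 genes of the clock's output arm considered here, measured in visceral fat, are the PAR bZIP factors Dbp, Tef and Hlf, their competitor Nfil3, the nuclear receptor Rora, the DEC repressors Bhlhe40 and Bhlhe41, and the clock-controlled genes Usp2 and Ciart. They were chosen by gene symbol, and all 9 were found among the 55011 symbols of the count table. RNA came from whole visceral adipose tissue, the fat around the abdominal organs, of male mice aged 30 weeks, after 16 weeks on a high-fat diet that followed 14 weeks on a low-fat one. Of the 6 libraries, 3 came from C57BL/6 Foxp3.Cre-YFP bmal1KO mice (Bmal1KO) and 3 from C57BL/6 Foxp3.Cre-YFP bmal1WT mice (Bmal1WT). Both groups carried the Cre recombinase, which Foxp3 drives in regulatory T cells, and all tissue was taken at zeitgeber time 0 h, when the lights come on. The comparison asks how the fat differs when Bmal1 (Arntl) is targeted in Foxp3-expressing cells, a small part of the tissue from which RNA was taken.

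In the circadian clock, BMAL1 and CLOCK activate genes that carry an E-box. Among these are Dbp, Tef and Hlf, whose proteins activate genes through a different element, the D-box, while NFIL3 binds the same element and represses. RORA activates genes such as Arntl through ROR elements, and the DEC proteins and CIART (CHRONO) repress CLOCK and BMAL1. In peripheral mouse tissues Dbp RNA is known to be low near the start of the light phase and high late in it, and Nfil3 and Arntl RNA run in roughly the opposite phase. Only 1 time of day was sampled, so rhythms themselves were not measured.

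The promoters of the members are shown first, because the E-box is the element through which BMAL1 and CLOCK activate genes. RefSeq start sites on GRCm38.p6 (the mm10 assembly) were given for 8 of the 9 members, as windows from 250 bases before to 50 bases after the start. Bhlhe40 had no entry. The E-box CACGTG was found in the windows of 3 members, Ciart, Tef and Bhlhe41, against 7.15% of 32851 windows of all genes. The Ciart window (chr3:95882179-95882478, minus strand) held 3 copies, at positions -116, -58 and -44 from the start, and 0.0883% of all windows held 3 or more. It reads as follows, with the E-boxes in capitals.
Ciart: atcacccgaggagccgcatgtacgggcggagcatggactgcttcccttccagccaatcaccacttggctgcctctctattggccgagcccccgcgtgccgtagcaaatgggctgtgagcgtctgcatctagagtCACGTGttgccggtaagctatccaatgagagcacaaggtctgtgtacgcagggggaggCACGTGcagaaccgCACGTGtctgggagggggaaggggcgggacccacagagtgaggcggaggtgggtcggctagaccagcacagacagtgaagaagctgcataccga

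Tef has 2 listed starts (windows chr15:81802423-81802722 and chr15:81811164-81811463, plus strand), each with 1 E-box, at -127 and -138. Bhlhe41 (chr6:145865371-145865670, minus strand) had 1 at -153. These single boxes are printed with 15 bases on either side.
Tef, upstream start: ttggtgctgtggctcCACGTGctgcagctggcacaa
Tef, downstream start: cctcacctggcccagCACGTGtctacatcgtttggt
Bhlhe41: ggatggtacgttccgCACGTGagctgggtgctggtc
The core of the ROR element, AGGTCA on either strand, was in 16.3% of all windows and in the window of 1 member, Nfil3, at -12, where it is read on the opposite strand.
Nfil3: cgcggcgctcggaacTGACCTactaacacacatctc
The E-box variant CACGTT (4.68% of all windows) and the D-box letters TTATGTAA, TTATGCAA and TTACGTAA (1.78% together), searched on both strands, were in 0 member windows. The E-box and ROR letters do not overlap each other in these windows. The Dbp, Hlf, Rora and Usp2 windows held none of the searched letters, which says nothing of sites elsewhere in those genes.

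Libraries held 6514620 to 8678772 counts in Bmal1KO and 8779413 to 9529198 in Bmal1WT, so a floor of 3 counts corresponds to 0.323 to 0.451 CPM (counts scaled to a fixed library total and by TMM, the trimmed mean of M values). Bmal1KO replicate 1, the shallowest, had counts on 30019 genes, against 19009 to 20145 in the other 5 libraries. Adipocyte markers (Adipoq, Plin1, Fabp4 and 12 others) summed to 26850 to 67480 CPM in Bmal1KO and 49080 to 62730 CPM in Bmal1WT. These sums bear out that the tissue was fat, but do not tell the visceral depot from others. Epididymis and testis markers summed to 333 CPM in Bmal1WT replicate 1 and to at most 3.23 CPM elsewhere. Arntl had 324, 289 and 314 counts in Bmal1KO replicates 1 to 3, against 273, 242 and 373 in Bmal1WT (log2 fold change 0.27, SE 0.22, edgeR adjusted p = 0.719). Foxp3 had 3, 0 and 2 counts in Bmal1KO and 0 in each Bmal1WT library, at or under the floor, too few to compare, and neither gene checks the genotype labels.

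No member passed the test. Of the 9, 7 had enough counts to be tested (Hlf and Ciart did not). Of these 7, 0 had an adjusted p under 0.05 by edgeR's quasi-likelihood F-test, adjusted by Benjamini-Hochberg across the 13859 genes tested, where 0% of all genes were called. At an unadjusted p under 0.05 there was 1 member, Nfil3, against 1290 genes in all (9.31%, and 4.26% with a lower level in Bmal1KO). The log2 fold changes of 6 of the 7 were negative, as were those of 48% of all genes, and the median was -0.44 over the members and 0.02 over all genes tested. The members' median was -0.18 without Bmal1KO replicate 2 and -0.16 without Bmal1WT replicate 2. The 3 Bmal1KO values overlapped the 3 Bmal1WT values in each of the 7, whereas the groups did not overlap in 15.7% of all genes. DESeq2 with its own filter called 60 of 14400 genes (0.417%) and 0 members, and limma voom called 0 genes. The labels do not say that each library came from a separate animal, so these p-values measure the spread between the samples.

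**Figure D1:**
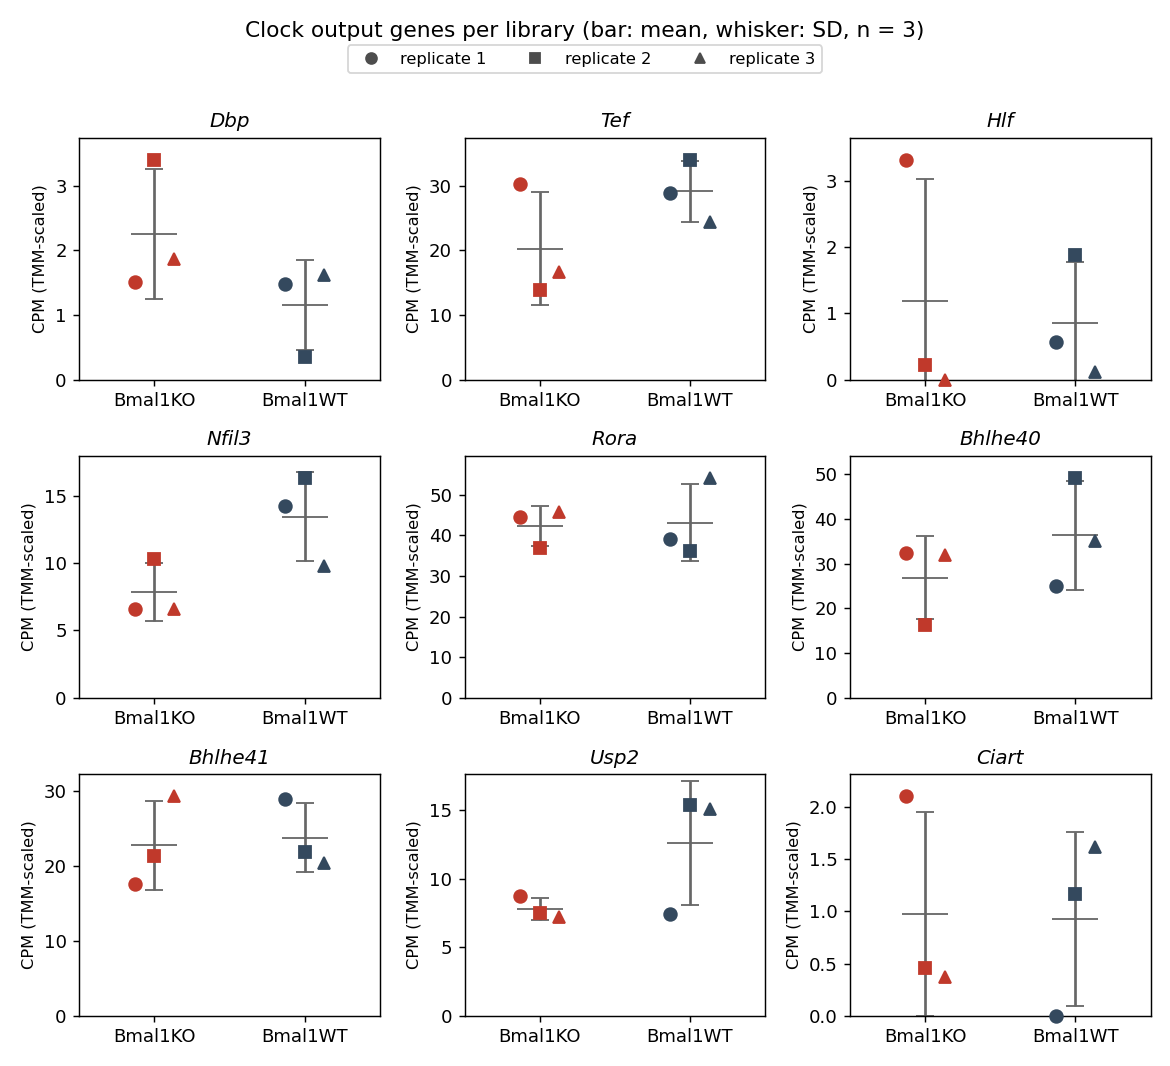
TMM-scaled CPM (y axis, from 0, its own scale in each panel) of the 9 genes in the 3 Bmal1KO and 3 Bmal1WT libraries, with the mean as a bar and the SD as whiskers, cut at 0 where they reach below it. Bmal1KO and Bmal1WT overlap in every panel, and Nfil3 and Usp2 have the clearest offset between the group means.

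Dbp, the PAR bZIP factor usually used as a readout of BMAL1 activity, had few counts and was at the floor in Bmal1WT replicate 2. It had 10, 30 and 15 counts in Bmal1KO replicates 1 to 3 and 13, 3 and 15 in Bmal1WT replicates 1 to 3. Bmal1KO replicate 2 stood highest and Bmal1WT replicate 2 lowest, and their exact Poisson 95% intervals, 20.2 to 42.8 counts and 0.619 to 8.77 counts, did not overlap. The other 4 libraries held 10 to 15 counts whichever group they belonged to. Dbp averaged 2.25 ± 1.01 CPM in Bmal1KO and 1.15 ± 0.694 CPM in Bmal1WT (SD, n = 3 each), a log2 fold change of 0.97 with SE 0.76 (edgeR adjusted p = 0.708). Its 95% interval, -0.70 to 2.65, spans from lower to well over the Bmal1WT level. Without Bmal1KO replicate 2 the log2 fold change was 0.54, and without Bmal1WT replicate 2 it was 0.55. Dbp (mm10 chromosome 7, 45705088 to 45710203) also shares 539 exonic bases with Sphk2, which lies on the opposite strand and had 172 to 283 counts per library. Because the library kit does not mark strand, some reads of these genes cannot be assigned to either. Other members also share exonic bases with genes on the opposite strand, the most being Bhlhe41, with 1280 shared with Gm43909 (0 counts in each library).

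Tef, the PAR bZIP factor with the most counts, differed among the Bmal1KO libraries more than between the groups. It had 201, 123 and 134 counts (30.2, 13.9 and 16.6 CPM) in Bmal1KO replicates 1 to 3, against 254, 290 and 227 counts (29.0, 34.0 and 24.4 CPM) in Bmal1WT. Bmal1KO replicate 1 lay within the Bmal1WT range and Bmal1KO replicates 2 and 3 lay under it. The means were 20.3 ± 8.73 CPM in Bmal1KO and 29.1 ± 4.78 CPM in Bmal1WT (SD, n = 3 each), a log2 fold change of -0.53 with SE 0.30 and a 95% interval of -1.19 to 0.13 (edgeR adjusted p = 0.609). Among all genes tested, 8.16% had a lower fold change. Leaving out Bmal1KO replicate 1 gave -0.93 (edgeR adjusted p = 0.105), and leaving out Bmal1KO replicate 2 gave -0.33 (edgeR adjusted p = 0.832).

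Hlf, the third PAR bZIP factor, was under the filter on low counts and got no fold change. It had 22, 2 and 0 counts in Bmal1KO replicates 1 to 3 and 5, 16 and 1 in Bmal1WT. Each group thus held 1 library well over the floor, Bmal1KO replicate 1 (95% Poisson interval 13.8 to 33.3 counts) and Bmal1WT replicate 2 (9.15 to 26 counts). The sums of 24 counts in Bmal1KO and 22 counts in Bmal1WT were nearly equal, while libraries of the same group differed by more than counting error. Bmal1KO replicate 1 is also the library with counts on the most genes, and the part this played was not tested.

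Nfil3, the repressor that competes with the PAR bZIP factors for the D-box and also serves as a regulator in lymphoid cells, had the smallest p of the members. It had 44, 91 and 53 counts in Bmal1KO replicates 1 to 3, against 125, 139 and 91 in Bmal1WT. Scaled, these were 6.62, 10.3 and 6.58 CPM in Bmal1KO and 14.3, 16.3 and 9.79 CPM in Bmal1WT. The highest Bmal1KO library, replicate 2, lay just over the lowest Bmal1WT library, replicate 3, and the other 4 libraries were apart by group. Nfil3 averaged 7.83 ± 2.14 CPM in Bmal1KO and 13.5 ± 3.32 CPM in Bmal1WT (SD, n = 3 each), 0.584-fold. The log2 fold change of -0.78 (SE 0.34, 95% interval -1.52 to -0.04) had an unadjusted p = 0.0416 and an edgeR adjusted p = 0.515. It ranked 1118 of 13859 genes by p, and 3.42% of genes had a lower fold change. It ran from -1.03 without Bmal1KO replicate 2 to -0.61 without Bmal1WT replicate 2. The unadjusted p was above 0.05 in 4 of the 6 edgeR fits with 1 library left out, at 0.0969 to 0.148, and with limma voom at 0.0555.

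Rora, the activating receptor at ROR elements, had nearly the same level in both groups. It had 297, 325 and 369 counts (44.7, 36.8 and 45.8 CPM) in Bmal1KO and 344, 309 and 503 counts (39.2, 36.2 and 54.1 CPM) in Bmal1WT. All 3 Bmal1KO libraries lay within the Bmal1WT range. The log2 fold change was -0.03 with SE 0.21, and its 95% interval of -0.48 to 0.43 is the narrowest among the members (edgeR adjusted p = 0.977). The sign turned to 0.067 when libraries were scaled by their size alone, a scaling that moved the median of all genes by itself to 0.11.

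The DEC repressors differed from each other in their values. Bhlhe40 (DEC1) had 215, 143 and 258 counts (32.3, 16.2 and 32.0 CPM) in Bmal1KO and 218, 419 and 325 counts (24.9, 49.1 and 35.0 CPM) in Bmal1WT. Bmal1KO replicate 2 was lowest and Bmal1WT replicate 2 highest, the mirror image of Dbp, and the other 4 libraries were between 24.9 and 35.0 CPM. The means of 26.8 ± 9.23 CPM in Bmal1KO and 36.3 ± 12.2 CPM in Bmal1WT (SD, n = 3 each) gave a log2 fold change of -0.44 (SE 0.32, edgeR adjusted p = 0.682, 95% interval -1.13 to 0.26). It was -0.18 without Bmal1KO replicate 2 and -0.16 without Bmal1WT replicate 2. Bhlhe41 (DEC2) had 117, 188 and 236 counts (17.6, 21.3 and 29.3 CPM) in Bmal1KO and 254, 187 and 189 counts (29.0, 21.9 and 20.3 CPM) in Bmal1WT, and each group covered nearly the same range. Its log2 fold change was -0.06 (SE 0.26, edgeR adjusted p = 0.955, 95% interval -0.63 to 0.51), and the sign changed with library size alone as scaling (0.038).

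Usp2, a deubiquitinating enzyme with strongly rhythmic RNA in many tissues, was uniform in Bmal1KO and split in Bmal1WT. It had 58, 66 and 58 counts (8.72, 7.47 and 7.20 CPM) in Bmal1KO replicates 1 to 3, against 65, 131 and 140 counts (7.42, 15.4 and 15.1 CPM) in Bmal1WT. Bmal1WT replicate 1 lay among the Bmal1KO libraries, and Bmal1WT replicates 2 and 3 lay over all of them. Usp2 averaged 7.80 ± 0.812 CPM in Bmal1KO and 12.6 ± 4.50 CPM in Bmal1WT (SD, n = 3 each), a log2 fold change of -0.70 with SE 0.35 and a 95% interval of -1.47 to 0.08 (edgeR adjusted p = 0.563). Without Bmal1WT replicate 1, the library with the epididymis and testis counts, it was -0.96 (unadjusted p = 0.0141, edgeR adjusted p = 0.695) and the groups no longer overlapped, which held for 24.2% of all genes with that library left out. Leaving out Bmal1WT replicate 2 or 3 gave -0.53 (unadjusted p = 0.224) and -0.54 (unadjusted p = 0.212) in the same edgeR test.

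Ciart, the repressor whose promoter window held 3 E-boxes, was too low to test. It had 14, 4 and 3 counts in Bmal1KO replicates 1 to 3 and 0, 10 and 15 in Bmal1WT. The count of 0 in Bmal1WT replicate 1 lies under that library's floor of 0.342 CPM, and Bmal1KO replicate 3 had 0.372 CPM at the floor of 3 counts. Both groups ran from at or under the floor to 2.11 CPM (Bmal1KO replicate 1) or 1.61 CPM (Bmal1WT replicate 3), and the sums were 21 counts in Bmal1KO and 25 counts in Bmal1WT. Of the 21 Bmal1KO counts, 14 were in replicate 1, the library with counts on the most genes. The part this played was not tested.

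**Figure D2:**
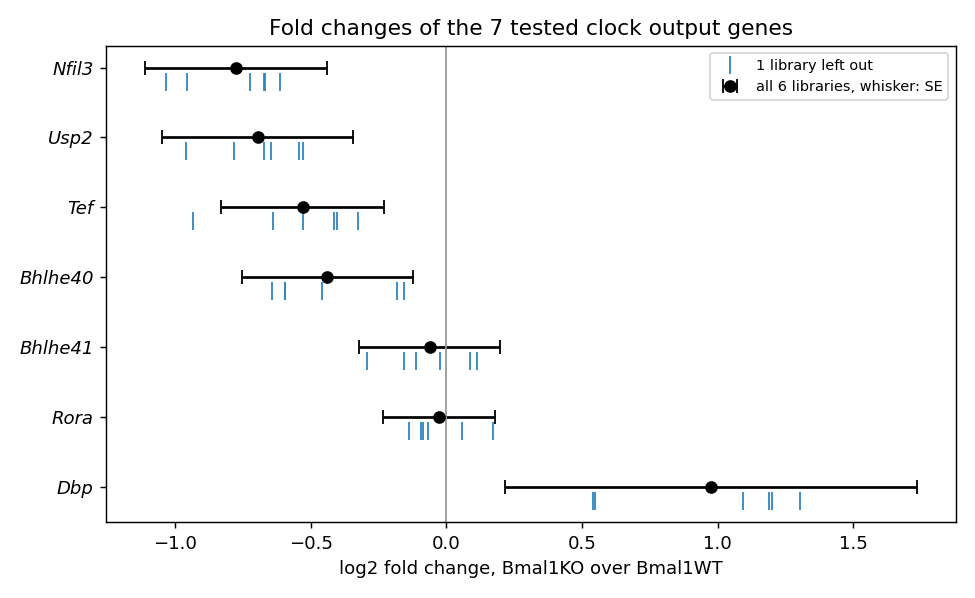
Log2 fold change of Bmal1KO over Bmal1WT (x axis) for the 7 tested genes, with all 6 libraries (black point, SE as whisker) and with each library left out in turn (blue ticks). Nfil3, Usp2, Tef and Bhlhe40 stay negative and Dbp positive in each such fit, Rora and Bhlhe41 change sign, and 0 of the fits gave a member an adjusted p under 0.05.

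To compare levels between genes, CPM was divided by the length of the gene's merged exons in GENCODE M21, which understates genes with many unused exons such as Rora (13.07 kb). On this scale the Bmal1KO order was Bhlhe40 (5.71 ± 1.96 CPM per kb), Nfil3 (3.87 ± 1.06), Bhlhe41 (3.38 ± 0.889), Rora (3.25 ± 0.374), Tef (2.58 ± 1.11), Usp2 (1.62 ± 0.169), Dbp (0.753 ± 0.336), Ciart (0.432 ± 0.433) and Hlf (0.176 ± 0.277; SD, n = 3 throughout). In Bmal1WT it was Bhlhe40 (7.72 ± 2.59 CPM per kb), Nfil3 (6.64 ± 1.64), Tef (3.70 ± 0.607), Bhlhe41 (3.53 ± 0.684), Rora (3.30 ± 0.733), Usp2 (2.62 ± 0.934), Ciart (0.411 ± 0.369), Dbp (0.384 ± 0.232) and Hlf (0.127 ± 0.137). The means of Bhlhe40 and Nfil3 were the highest and those of Ciart, Dbp and Hlf the lowest in both groups. In Bmal1KO, Nfil3 did not differ beyond its spread from Bhlhe41, Rora or Tef, and it lay under Rora in 2 of the 3 libraries. Within the lowest set, neighbours did not differ beyond their spread in either group. The lowest Nfil3 library exceeded the highest Dbp library in both groups, 3.25 against 1.14 CPM per kb in Bmal1KO and 4.83 against 0.539 CPM per kb in Bmal1WT. A gap between neighbours with no overlap of libraries separated Usp2 from the genes under it in both groups, and Nfil3 from Tef in Bmal1WT. Tef was above Dbp in every library, so the PAR bZIP RNA measured here was mostly Tef.

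**Figure D3:**
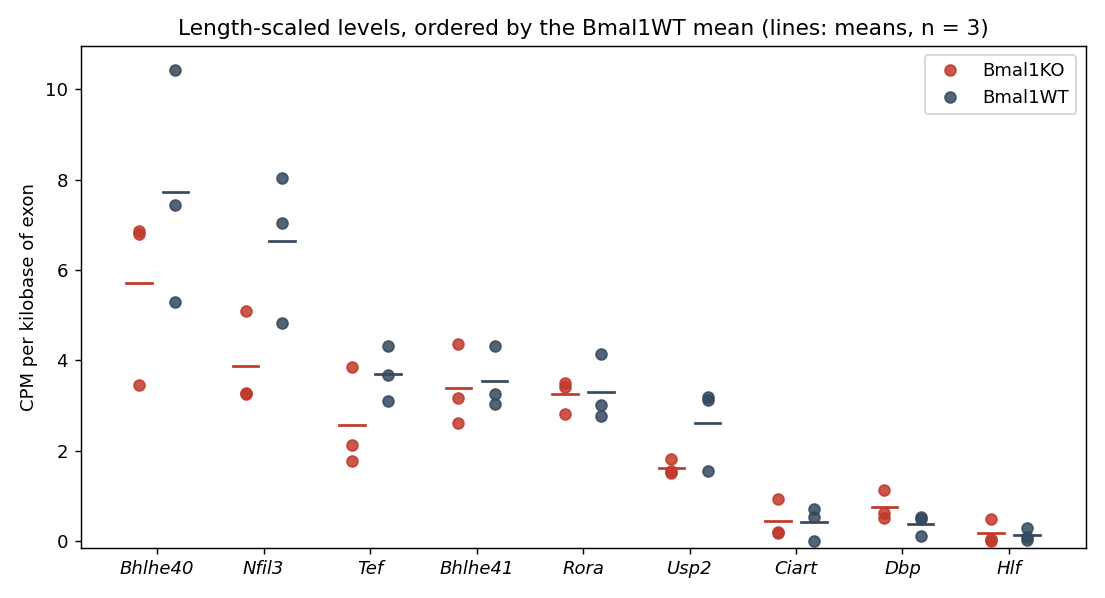
CPM per kilobase of merged exon (y axis) in each library, with Bmal1KO left of Bmal1WT for each gene and short lines at the means. Bhlhe40 and Nfil3 have the highest means in both groups, and Ciart, Dbp and Hlf lie at or under 1.14 CPM per kb in all 6 libraries.

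The members did not vary as 1 block across libraries. Over the 6 libraries, log2 CPM of Dbp ran opposite to Tef (Pearson r = -0.804, exact permutation p = 0.025, and Spearman rho = -0.943, exact permutation p = 0.0167). With Benjamini-Hochberg adjustment over the 8 relations of Dbp with the other members, the exact permutation p was 0.2 for r and 0.134 for rho, and 0 of the 8 passed. Without the 2 libraries farthest from the Dbp median (Bmal1WT replicate 2 and Bmal1KO replicate 2), r with Tef was -0.993. With library size alone as scaling it was -0.869. The libraries left held 10 to 15 Dbp counts with overlapping 95% Poisson intervals, so their Dbp differences lay within counting error and this r says little. For Bhlhe40, r = -0.876 (exact permutation p = 0.0597, adjusted 0.239) with rho = -0.6 (exact permutation p = 0.242, adjusted 0.484), and r was 0.435 without those libraries, so that relation rests on them. For Usp2, Hlf, Nfil3 and Ciart r was -0.673, -0.552, -0.53 and -0.274, and for Rora and Bhlhe41 0.212 and 0.049, with adjusted exact permutation p of 0.333 to 0.928. The points share the genotype groups and library composition, and Dbp rests on 3 to 30 counts. The 5 genes most like Dbp among 8831 with a mean of at least 10 CPM were Ccdc130, Keap1, Fam216a, Mmp2 and Rbm5, with r from 0.964 to 0.979 over 6 libraries, given as a description.

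In the core clock loop, 16 of 18 listed genes were tested and 0 passed in either direction. Their median log2 fold change was 0.29, with 10 higher and 6 lower in Bmal1KO, beside 0.02 over all genes. Npas2, a paralogue of Clock, had 37, 33 and 44 counts in Bmal1KO and 19, 18 and 3 in Bmal1WT (log2 fold change 1.69, SE 0.68, edgeR adjusted p = 0.485). Its 3 counts in Bmal1WT replicate 3 are at the floor. Nr1d2 (REV-ERB beta, a repressor at ROR elements) had 37, 47 and 26 counts in Bmal1KO against 24, 13 and 20 in Bmal1WT (log2 fold change 1.14, SE 0.52). Npas2 and Nr1d2 were the 2 of the 16 tested genes whose groups did not overlap, against 15.7% of all genes tested, so their number is not out of the ordinary. The period gene Per1 had a log2 fold change of 0.67 (SE 0.31) and the cryptochrome Cry1 of 0.48 (SE 0.31). Per3, another period gene, had -0.36 (SE 0.24), and Btrc, an F-box protein that marks period proteins for breakdown, had -0.62 (SE 0.29).

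**Figure D4:**
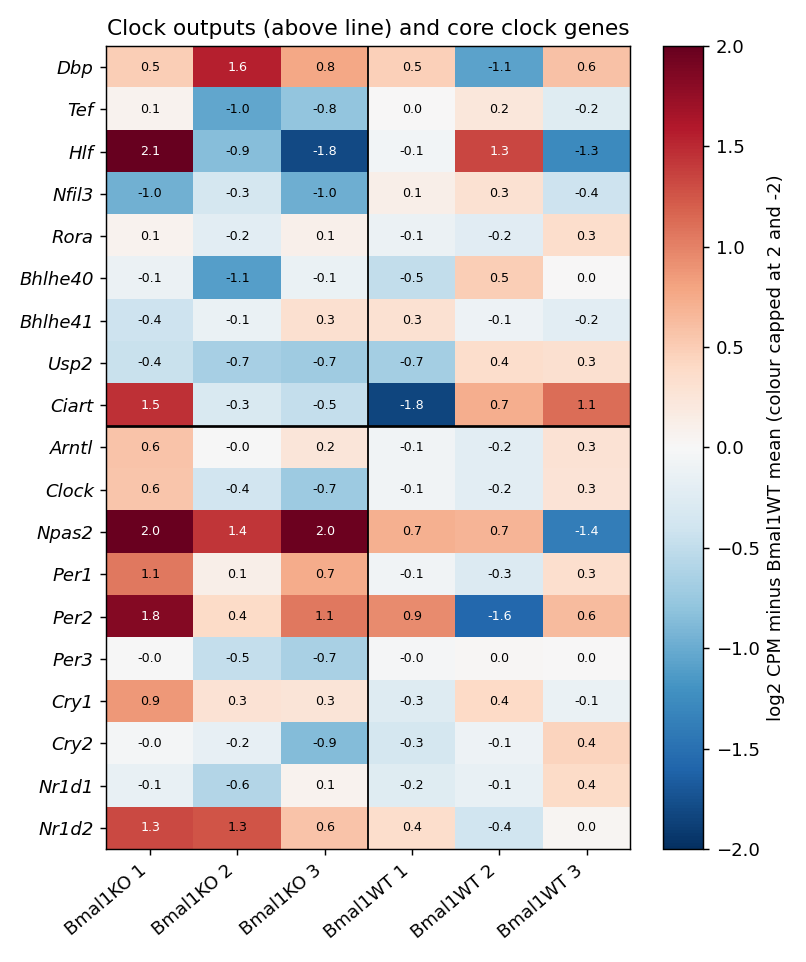
Log2 CPM (prior count of 2) minus the Bmal1WT mean for the 9 output genes (above the line) and 10 genes of the core loop (below it), one column per library, with Bmal1KO on the left. Dbp, Npas2, Per1, Per2, Cry1 and Nr1d2 are positive in all 3 Bmal1KO libraries. Nfil3, Bhlhe40, Usp2, Per3 and Cry2 are negative in all 3, and the remaining genes change sign within Bmal1KO. Signs within Bmal1WT differ in every row because rows are centred on the Bmal1WT mean.

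Among genes known to be driven by the PAR bZIP factors or the clock, 16 of 17 listed were tested, 0 passed, and the median log2 fold change was 0.00 (8 higher, 8 lower). Por, the cytochrome P450 reductase and a PAR bZIP target in liver, was at 199, 162 and 237 CPM in Bmal1KO against 283, 240 and 324 CPM in Bmal1WT (log2 fold change -0.50, SE 0.19, edgeR adjusted p = 0.468). Alas1, the first enzyme of heme synthesis and likewise a target in liver, had a log2 fold change of -0.37 (SE 0.18). Pdxk, pyridoxal kinase, a target in brain, was at 48.4, 61.3 and 48.8 CPM in Bmal1KO against 41.9, 32.8 and 35.7 CPM in Bmal1WT (0.52, SE 0.19, edgeR adjusted p = 0.459). The groups did not overlap for Por and Pdxk, which lay in opposite directions. These were 2 of the 16 tested, against 15.7% of all genes tested. Dgat2, which makes triglyceride, had -0.66 (SE 0.27), Klf15 -0.58 (SE 0.45) and Tsc22d3, a glucocorticoid target, -0.22 (SE 0.16).

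Marker sums for several cell types differed among the libraries. Fewer cells of a type and less RNA per cell cannot be told apart in whole tissue. Summed adipocyte markers were 67480, 33660 and 26850 CPM in Bmal1KO replicates 1 to 3 and 49080, 60970 and 62730 CPM in Bmal1WT, with 14 of 15 markers lower in Bmal1KO and none at 0 in all libraries. In Bmal1KO, Tef was likewise highest in replicate 1, at 30.2 CPM, against 13.9 and 16.6 CPM in the adipocyte-low replicates 2 and 3. The order went no further, since Bmal1KO replicate 3, lowest in adipocyte markers, had more Tef than Bmal1KO replicate 2. In Bmal1WT, Tef was at 29.0, 34.0 and 24.4 CPM, lowest in replicate 3, where the adipocyte sum was highest. Summed T cell markers were 151, 328 and 249 CPM in Bmal1KO and 41.6, 121 and 76.0 CPM in Bmal1WT, with 18 of 18 higher. Nfil3 was at 6.62, 10.3 and 6.58 CPM in Bmal1KO and 14.3, 16.3 and 9.79 CPM in Bmal1WT. The T cell sums were thus higher and the Nfil3 mean lower in Bmal1KO, whereas within each group replicate 2 had the most of both. Endothelial markers summed to 318 to 532 CPM in Bmal1KO and 465 to 976 CPM in Bmal1WT, 11 of 11 lower. Macrophage markers, leaving out Lpl because adipocytes express it too, summed to 8905, 15920 and 18910 CPM in Bmal1KO replicates 1 to 3 and 13460, 12700 and 9019 CPM in Bmal1WT (10 of 12 higher). With Lpl the sums were 18900 to 25530 CPM in Bmal1KO and 20480 to 22270 CPM in Bmal1WT. B cell markers summed to 50.2, 32.3 and 313.5 CPM in Bmal1KO replicates 1 to 3 and 32.4, 12.1 and 51.7 CPM in Bmal1WT. Of these markers 7 of 7 tested were higher, but the sums of Bmal1KO replicates 1 and 2 lay within the Bmal1WT range. Mast cell markers summed to 266 to 417 CPM in Bmal1KO and 74.4 to 158 CPM in Bmal1WT (8 of 8 tested higher), and regulatory T cell markers to 33.6 to 35.6 CPM in Bmal1KO and 13.5 to 27.4 CPM in Bmal1WT (6 of 8 tested higher). The regulatory T cell markers did not move together. Tnfrsf18 had a log2 fold change of 2.13 (SE 0.62) and Il2ra of -1.61 (SE 0.65), neither passed, and Foxp3 was too low to test. Mesothelial markers summed to 503 to 577 CPM in Bmal1KO and 239 to 464 CPM in Bmal1WT (9 of 9 higher), and stromal progenitor markers to 4626 to 6451 CPM in Bmal1KO and 4392 to 6724 CPM in Bmal1WT (6 of 8 higher). Immediate early genes, which respond to handling, summed to 371 to 789 CPM in Bmal1KO and 598 to 628 CPM in Bmal1WT, with 4 of 10 tested higher. Glucocorticoid-responsive genes summed to 1072 to 1151 CPM in Bmal1KO and 1238 to 1538 CPM in Bmal1WT, but 6 of 11 were higher and their median log2 fold change was 0.01. Without the metallothionein Mt1 (359 to 374 CPM in Bmal1KO, 429 to 722 CPM in Bmal1WT) the sums were 697 to 792 CPM in Bmal1KO and 770 to 815 CPM in Bmal1WT, and overlapped. The part of cell makeup in the members' values was not tested.

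**Figure D5:**
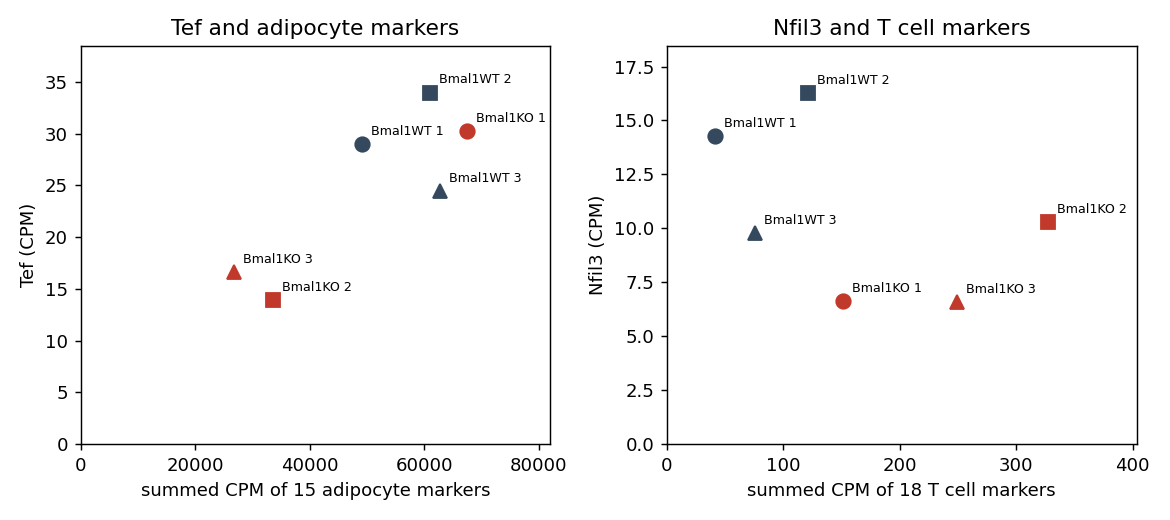
Tef CPM against the summed CPM of 15 adipocyte markers (left) and Nfil3 CPM against the summed CPM of 18 T cell markers (right), 1 point per library, red for Bmal1KO and dark for Bmal1WT. The pairs were chosen after the values were seen, and on the left Bmal1KO replicate 1 (30.2 CPM) lies within the Bmal1WT range of Tef.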

How the data were processed

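The deposited table holds whole-number counts for each gene symbol. Per the submitters' processing notes, the authors used STAR 2.7.3a, featureCounts and mm10. Which annotation and strand setting they used, and how multiply mapped reads were handled, is not given in the sources used here. Per the labels' protocols, 2 ng of RNA was primed with anchored oligo(dT), amplified, cut with Nextera XT and read as paired 38 bp, without strand or molecular identifiers, so intervals and floors cover counting error only. All 6 columns were used and their libraries differed beyond sampling noise.

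Genes kept by filterByExpr (13859) were scaled by TMM and tested as Bmal1KO over Bmal1WT, without covariates, by edgeR 4.0.16's robust quasi-likelihood F-test in R 4.3.3, adjusted by Benjamini-Hochberg at a threshold of 0.05. The SE is the unshrunken coefficient over the square root of F, and 95% intervals use the moderated degrees of freedom. The test was checked on simulated data. Correlations used log2 CPM (prior count 2) and all orderings of the 6 libraries.

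Alternatives were DESeq2 1.42.0, limma 3.58.1 voom with quality weights, other scalings and filters, a replicate block and left-out libraries. Gene positions and lengths came from GENCODE M21 (mm10), promoters from RefSeq (GRCm38.p6). All members are named. Other clock genes and targets were named by smallest p, up to 6 a list, plus Arntl and Foxp3. Members and lists were chosen with earlier results of these data known.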

Additional observations from a re-analysis of the deposited data

How the results depend on the processing

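Across all 14 alternatives to the main analysis the number of members called was 0, and Nfil3, Usp2, Tef and Bhlhe40 kept a negative and Dbp a positive log2 fold change. Rora and Bhlhe41, both near 0, reversed: Rora to 0.067 with library size alone, 0.059 without Bmal1KO replicate 2 and 0.17 without Bmal1WT replicate 3 (range -0.14 to 0.17 with 1 library left out); Bhlhe41 to 0.038 with library size alone, 0.089 without Bmal1KO replicate 1, 0.11 without Bmal1WT replicate 1 (range -0.29 to 0.11) and 0.27 without both replicates 1. The count of genes called, 0 in the main analysis, was 60 with DESeq2, 186 with no filter, 61 without both replicates 1, and 0 to 156 with 1 library left out (156 without Bmal1KO replicate 1, 6 without Bmal1KO replicate 2, 1 without Bmal1WT replicate 1). The median member log2 fold change of -0.44 was -0.57 with limma voom, -0.62 without both replicates 1, and -0.59 to -0.16 with 1 library left out. The median of all genes was 0.47 with DESeq2 and 0.46 with no filter, over all genes with a count, and 0.11 with library size alone. Members at an unadjusted p under 0.05, 1 in the main analysis, numbered 0 with library size alone, 2 with no filter, 3 without both replicates 1, and 0 to 1 with 1 library left out. The 1 member was Tef, not Nfil3, with limma voom and without Bmal1KO replicate 1, and Usp2 without Bmal1WT replicate 1. Members whose groups did not overlap, 0 in the main analysis, numbered 4 without both replicates 1, where 46.3% of all genes did not overlap, and 0 to 2 with 1 library left out, where 24.2% to 33.9% of genes did not. Other causes were not tested. Replicate numbers did not pair the libraries (correlations of deviations of -0.07, 0.094 and -0.031 for numbers 1 to 3). With the replicate block, 0 genes were called and the Nfil3 log2 fold change was -0.78 (edgeR adjusted p = 0.596), and the other members kept their direction. Under the other scalings and a prior count of 0.5, 0 correlations of Dbp passed and the 6-library Pearson r kept its sign in all 8 relations. Other signs did turn: rho with Bhlhe41 was 0.257 with library size alone, against -0.029, and the r with Ciart without the 2 extreme libraries was 0.125 with library size alone and 0.11 with a prior count of 0.5, against -0.035. Counting error is widest for Dbp, Hlf and Ciart, whose counts reach 3 or fewer in at least 1 library.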
